A study of Mus musculus with 7 samples.

Results

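The enzymes that make, recycle and break down nicotinamide adenine dinucleotide (NAD) were examined in liver RNA from obese mice with and without bitter melon juice. The group is a fixed list of 9 Ensembl gene IDs out of 33426 in the data, covering Nampt, Nmrk1, Nmnat1, Nmnat3, Naprt, Qprt, Nadsyn1, Nnmt and Cd38. The symbols came with that list, since the deposited values carry Ensembl IDs alone and the reference tables used here pair none of them with a symbol. All mice were wild-type C57BL/6J males, an inbred strain prone to obesity on fatty diets, and all were fed a diet with 60% of its energy as fat from 4 weeks of age until 16 weeks and for another 40 days. The 4 mice of the BMJ + DIO group (bitter melon juice in diet-induced obesity) were gavaged each day of those 40 days with lyophilized juice extract at 200 mg per kg of body weight. The 3 mice of the DIO group stayed on the diet alone. No gavage is described for them, so effects of the juice and of the handling that goes with it cannot be told apart. The labels put all livers at 16 weeks, which does not account for the added 40 days, and no lean group was analysed here.

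NAD carries electrons in glycolysis, fatty acid oxidation and the respiratory chain, and it is also used up by sirtuins, poly-ADP-ribose polymerases and CD38, which release nicotinamide. Cells rebuild it in several ways: nicotinamide and nicotinamide riboside enter through nicotinamide mononucleotide, nicotinic acid enters through the Preiss-Handler route, and tryptophan enters through quinolinic acid. The liver is known for running all of these routes and for exporting nicotinamide to other tissues, and hepatic NAD is a known subject of obesity research.

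Each liver gave 1 array, and each array holds 1 RMA value per ID on the log2 scale, where a step of 1 is a doubling. After the dimmest 40% of IDs by mean over all 7 arrays were left out, 20055 IDs remained, and all 9 enzymes were among them, with means from 3.99 for Nmnat3 to 7.50 for Nnmt. Levels of different genes come from different probes and are not ranked against each other. The arrays were not equally alike. DIO replicate 3 had a mean Pearson correlation of 0.924 with the other 6 arrays across the tested IDs, and the others lay between 0.964 and 0.969. Among the 5894 tested IDs with a mean between 5 and 8, a range that holds 8 of the 9 enzymes, its median deviation from the 7-array median was -0.46, against -0.080 to 0.075 on the other arrays. The group difference of each enzyme is therefore given with and without that animal, and other summaries include it unless stated.

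The list was selected on knowledge of earlier results of this same comparison, in which Nmrk1 had been singled out by its BMJ + DIO minus DIO difference. The group differences below are descriptions of these 7 livers with their errors, and no p-value is given for an enzyme. In limma's moderated fit 0 of the 20055 IDs (0%) reached an adjusted p of 0.05 (Benjamini-Hochberg), the smallest adjusted p being 0.571, and 1285 IDs (6.41%) had an unadjusted p under 0.05. A further rule, at least a 1.5-fold difference on top of that p, took in 343 IDs (1.71%), 207 of them higher (1.03%) and 136 lower (0.678%) in BMJ + DIO. It took in 2 of the 9 enzymes, Nampt and Nmrk1, both higher. The 4 treated values lay entirely above or below the 3 control values in 705 of the tested IDs (3.52%), entirely above in 369 (1.84%) and entirely below in 336 (1.68%). They lay entirely above for 3 enzymes, Nampt, Nmrk1 and Nnmt, and entirely below for none. Leaving out DIO replicate 1 raised the number of enzymes with separate groups to 5, adding Nmnat3 below and Qprt above, while the share of all tested IDs with separate groups went from 3.52% to 39.6%. Because the list was made with this comparison in view, nothing is read from these shares.

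**Figure D1:**
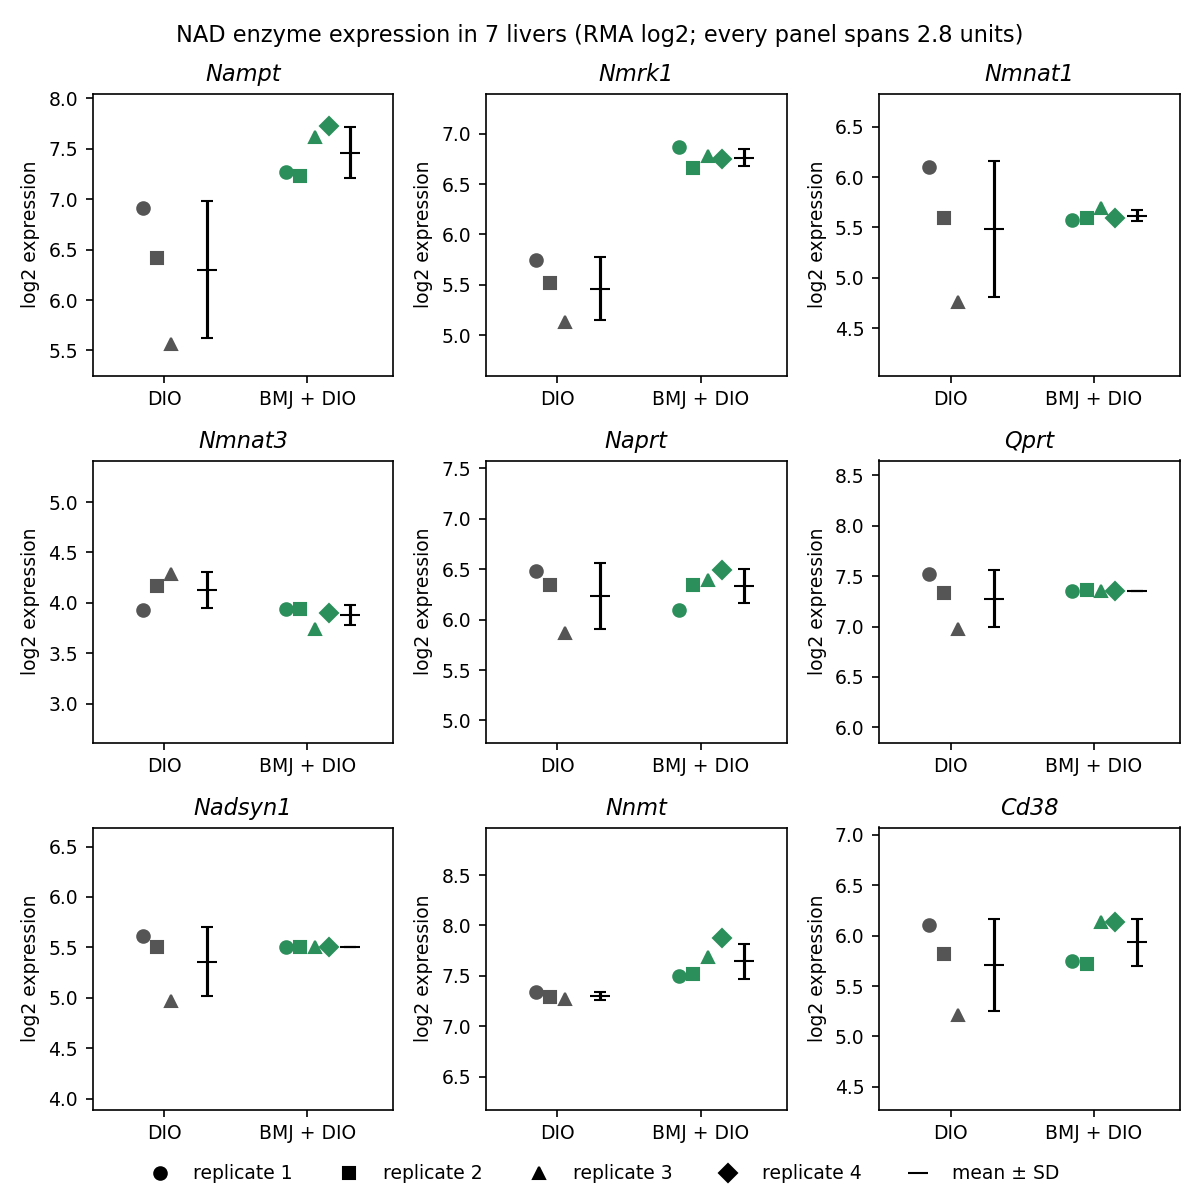
Log2 expression (vertical axis) of each NAD enzyme in the 3 DIO livers (grey) and 4 BMJ + DIO livers (green), with a marker shape per replicate number and bars for the mean ± SD. Nampt, Nmrk1 and Nnmt have every treated liver above every control liver, and DIO replicate 3 is the lowest control for 8 of the 9 enzymes.

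The enzymes that supply nicotinamide mononucleotide had the largest differences. Nampt, which joins nicotinamide to phosphoribose and sets the pace of salvage in mammals, lies on chromosome 12 (ENSMUSG00000020572, GRCm38.p6, 32820335 to 32853369). Its log2 values were 6.91, 6.42 and 5.57 in DIO replicates 1 to 3 and 7.27, 7.23, 7.62 and 7.73 in BMJ + DIO replicates 1 to 4. Every treated liver was above every control liver, and the controls were spread widely, with DIO replicate 3 far below the other two. DIO livers averaged 6.30 ± 0.68 (SD, n = 3), and BMJ + DIO livers averaged 7.46 ± 0.25 (SD, n = 4), a 2.24-fold higher level. The log2 difference was 1.16 (standard error 0.33), and its 95% interval ran from 0.36 to 1.97. Without DIO replicate 3 it was 0.80, with an interval of 0.22 to 1.37, which is 1.74-fold.

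Nmrk1, the kinase that phosphorylates nicotinamide riboside to the same mononucleotide, lies on chromosome 19 (ENSMUSG00000037847, 18632016 to 18652428). Its log2 values were 5.74, 5.52 and 5.13 in the DIO livers and 6.87, 6.66, 6.78 and 6.74 in the BMJ + DIO livers. The treated livers lay close together, and even the highest control was well below the lowest of them. DIO livers averaged 5.46 ± 0.31 (SD, n = 3), and BMJ + DIO livers averaged 6.76 ± 0.087 (SD, n = 4), a level 2.46-fold higher. The log2 difference was 1.30 (standard error 0.15, 95% interval 0.94 to 1.66). Without DIO replicate 3 the difference was 1.13 (interval 0.90 to 1.36), or 2.19-fold. Of the tested IDs, 99.7% had a lower difference than Nmrk1 and 99.6% a lower one than Nampt. Nmrk1 had been singled out by this difference and the list was made with the comparison in view, so nothing is read from these ranks. The samples are whole liver, where more cells of a type and more RNA per cell cannot be told apart.

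Because Nampt and Nmrk1 differed in the same direction, their upstream sequence is shown. Nampt transcription is known to be driven by the clock factors CLOCK and BMAL1, which bind E-boxes (CACGTG). The 250 bases before each start listed for a gene by RefSeq were searched on both strands. The 6 motifs were CACGTG, its variant CACGTT, the nuclear receptor half-site AGGTCA, the D-box TTATGNAA, the cAMP element TGACGTCA and the TATA box TATAAA. No motif letters overlap in the matches found. Capitals mark a match, the sequences are RefSeq's in build GRCm38.p6, and both genes are on the plus strand, at chr12:32820085-32820334 for Nampt and chr19:18631766-18632015 for Nmrk1.
Nampt: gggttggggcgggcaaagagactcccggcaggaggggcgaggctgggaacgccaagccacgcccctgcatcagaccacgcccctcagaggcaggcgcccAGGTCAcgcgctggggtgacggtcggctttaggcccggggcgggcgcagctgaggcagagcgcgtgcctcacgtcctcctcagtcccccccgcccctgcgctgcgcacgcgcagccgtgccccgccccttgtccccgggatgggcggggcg
Nmrk1: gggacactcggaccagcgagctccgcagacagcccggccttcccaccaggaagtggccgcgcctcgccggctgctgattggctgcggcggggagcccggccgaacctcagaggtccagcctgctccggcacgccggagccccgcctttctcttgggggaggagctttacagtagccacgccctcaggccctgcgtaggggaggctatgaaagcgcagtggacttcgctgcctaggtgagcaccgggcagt
Both windows are rich in G and C, at 75.6% for Nampt and 69.2% for Nmrk1, against a median of 52.4% over all 32851 windows in the RefSeq table. AGGTCA occurs once in the Nampt window, with its first base at position -151 relative to the gene start, and 14% of all windows hold it. None of the 6 motifs has a match in the Nmrk1 window. CACGTG was found in neither window and is held by 6.02% of all windows, CACGTT by 3.85%, TTATGNAA by 3.07%, TGACGTCA by 1.55% and TATAAA by 12.4%. Among the 7 enzymes with a window in the table, the Nampt match was the only one for any of these motifs. The Nmnat3 window (98296320 to 98296569) lies inside the gene as positioned here. The Nadsyn1 window and 1 of 2 Nmnat1 windows also run into their genes. Naprt and Nnmt were not searched. These matches are letters in a short window and say nothing of binding in or outside it.

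The last step to NAD did not show a difference of that size. Nmnat1, the nuclear adenylyltransferase that turns nicotinamide mononucleotide into NAD (ENSMUSG00000028992, chromosome 4, 149467569 to 149485210), had log2 values of 6.10, 5.60 and 4.76 in DIO and 5.58, 5.60, 5.69 and 5.60 in BMJ + DIO. The treated livers sat in the middle of the control range, between DIO replicates 1 and 3. DIO livers averaged 5.49 ± 0.67 (SD, n = 3), and BMJ + DIO livers averaged 5.62 ± 0.053 (SD, n = 4). The log2 difference of 0.13 had a 95% interval of -0.60 to 0.86, and it was -0.23 without DIO replicate 3. An interval this wide leaves room for a BMJ + DIO level from 0.66-fold to 1.82-fold of that in DIO, so similar levels were not shown.

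Nmnat3, an adenylyltransferase described in mitochondria (ENSMUSG00000032456, chromosome 9, 98287433 to 98420533), was the one enzyme with a lower mean in BMJ + DIO. Its log2 values were 3.93, 4.17 and 4.29 in DIO and 3.94, 3.94, 3.74 and 3.90 in BMJ + DIO. The groups overlapped at DIO replicate 1, and this was the only enzyme for which DIO replicate 3 was the highest of the 7 livers. That array had the smallest SD across the tested IDs, 1.36 against 1.47 to 1.59 on the others. Its median deviation was -0.46 for IDs between 5 and 8, a range that leaves out Nmnat3, and -0.027 over all tested IDs. Whether this bears on Nmnat3 was not tested. DIO livers averaged 4.13 ± 0.18 (SD, n = 3), and BMJ + DIO livers averaged 3.88 ± 0.096 (SD, n = 4), a log2 difference of -0.25 (95% interval -0.50 to -0.0069), or -0.17 without DIO replicate 3. Its mean of 3.99 lies nearer than that of any other enzyme to the filter limit of 2.74, and detection over background was not examined here.

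**Figure D2:**
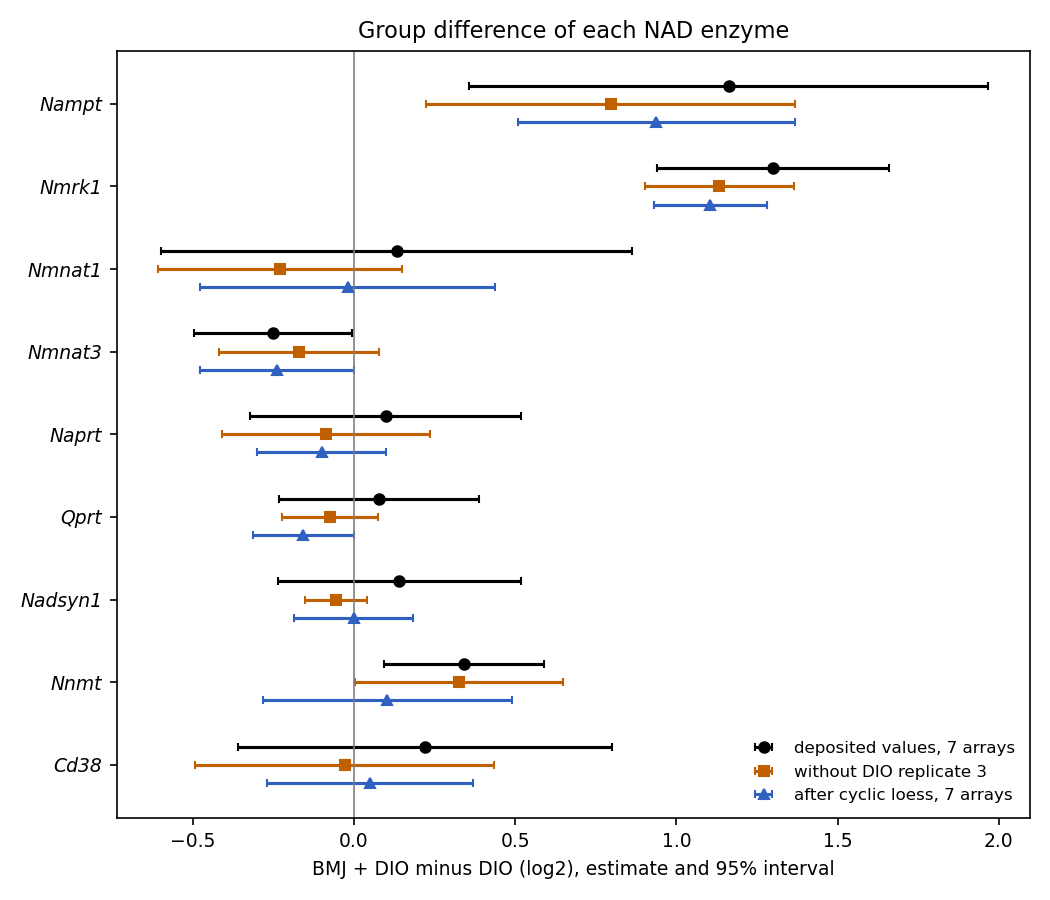
BMJ + DIO minus DIO difference on the log2 scale (horizontal axis) for each enzyme, with 95% intervals from limma, on the deposited values, with DIO replicate 3 left out, and on all arrays after cyclic loess (a normalization that removes trends with brightness). Nampt and Nmrk1 stay between 0.80 and 1.30 in all 3 versions, Nnmt drops to 0.10 after cyclic loess, and Nmnat1, Naprt, Qprt, Nadsyn1 and Cd38 change sign in at least 1 version.

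The routes from nicotinic acid and tryptophan showed small differences next to their spread. Naprt, which takes nicotinic acid into the Preiss-Handler route (ENSMUSG00000022574, chromosome 15, 75890963 to 75894481), had log2 values of 6.49, 6.35 and 5.87 in DIO and 6.09, 6.35, 6.39 and 6.49 in BMJ + DIO. The groups covered nearly the same range. DIO livers averaged 6.23 ± 0.33 (SD, n = 3), and BMJ + DIO livers averaged 6.33 ± 0.17 (SD, n = 4), a difference of 0.098 (95% interval -0.32 to 0.52) that became -0.086 without DIO replicate 3.

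Qprt, which converts quinolinic acid from tryptophan (ENSMUSG00000030674, chromosome 7, 127107770 to 127122029), had log2 values of 7.52, 7.33 and 6.97 in DIO and 7.35, 7.36, 7.35 and 7.35 in BMJ + DIO. The treated livers were almost identical and lay inside the control range. The difference was 0.077 (95% interval -0.23 to 0.39), and -0.075 without DIO replicate 3. Nadsyn1, the synthetase that amidates the product of both routes to NAD (ENSMUSG00000031090, chromosome 7, 143795589 to 143822862), read 5.61, 5.50 and 4.97 in DIO and 5.50 in each BMJ + DIO liver. Its difference was 0.14 (95% interval -0.24 to 0.52), and -0.056 without DIO replicate 3.

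The lack of spread in Nadsyn1 is a property of the deposited values. It holds the same number, 5.49993, on 5 arrays, namely DIO replicate 2 and all 4 BMJ + DIO arrays, so its SD of 0 in the treated group is no measure of how alike those mice were. Nmnat1 repeats 5.59747 on 3 arrays, and Nmnat3, Naprt and Qprt each share 1 value between 2 arrays. Nampt, Nmrk1, Nnmt and Cd38 have 7 distinct values, as do 41.0% of all tested IDs. The reason for the repeats was not tested.

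Of the enzymes that use up NAD or divert nicotinamide, Nnmt had separate groups and Cd38 did not. Nnmt, which methylates nicotinamide with S-adenosylmethionine and so takes it out of salvage, lies on chromosome 9 (ENSMUSG00000032271, 48538002 to 48607655). Its log2 values were 7.34, 7.29 and 7.27 in DIO and 7.49, 7.51, 7.69 and 7.88 in BMJ + DIO. The controls were tight here, DIO replicate 3 included, and every treated liver was above them. DIO livers averaged 7.30 ± 0.039 (SD, n = 3), and BMJ + DIO livers averaged 7.64 ± 0.18 (SD, n = 4), a level 1.27-fold higher. The log2 difference was 0.34 (standard error 0.10, 95% interval 0.092 to 0.59). Without DIO replicate 3 the difference was 0.32 (interval 0.0020 to 0.65). It depended on the scaling: it was 0.14 (interval -0.21 to 0.48) after quantile normalization and 0.10 (interval -0.28 to 0.49) after cyclic loess, and the groups then overlapped.

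Cd38, a membrane enzyme that hydrolyses NAD and is known from immune cells and other non-hepatocytes, lies on chromosome 5 (ENSMUSG00000029084, 43868809 to 43912374). Its log2 values were 6.11, 5.82 and 5.21 in DIO and 5.75, 5.72, 6.13 and 6.13 in BMJ + DIO. The groups overlapped broadly. DIO livers averaged 5.71 ± 0.46 (SD, n = 3), and BMJ + DIO livers averaged 5.93 ± 0.23 (SD, n = 4), a difference of 0.22 (95% interval -0.36 to 0.80) that became -0.028 without DIO replicate 3. Markers of immune and other liver cells could not be set beside it, since their IDs are not paired with symbols in the tables used here, and the part of cell makeup in any of these values was not tested.

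As a family the enzymes did not share one shift. Of the 9, 8 had a higher mean in BMJ + DIO, as did 56.3% of the tested IDs. The median difference was 0.14, against 0.024 over all tested IDs and 0.17 over the 5894 IDs with a mean between 5 and 8. Without DIO replicate 3 the median over the enzymes was -0.056, and that over the IDs between 5 and 8 was 0.022. Without DIO replicate 1 the median over the enzymes was 0.36. After cyclic loess it was -0.00053, while Nampt remained 0.94 and Nmrk1 1.11 higher on the log2 scale.

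**Figure D3:**
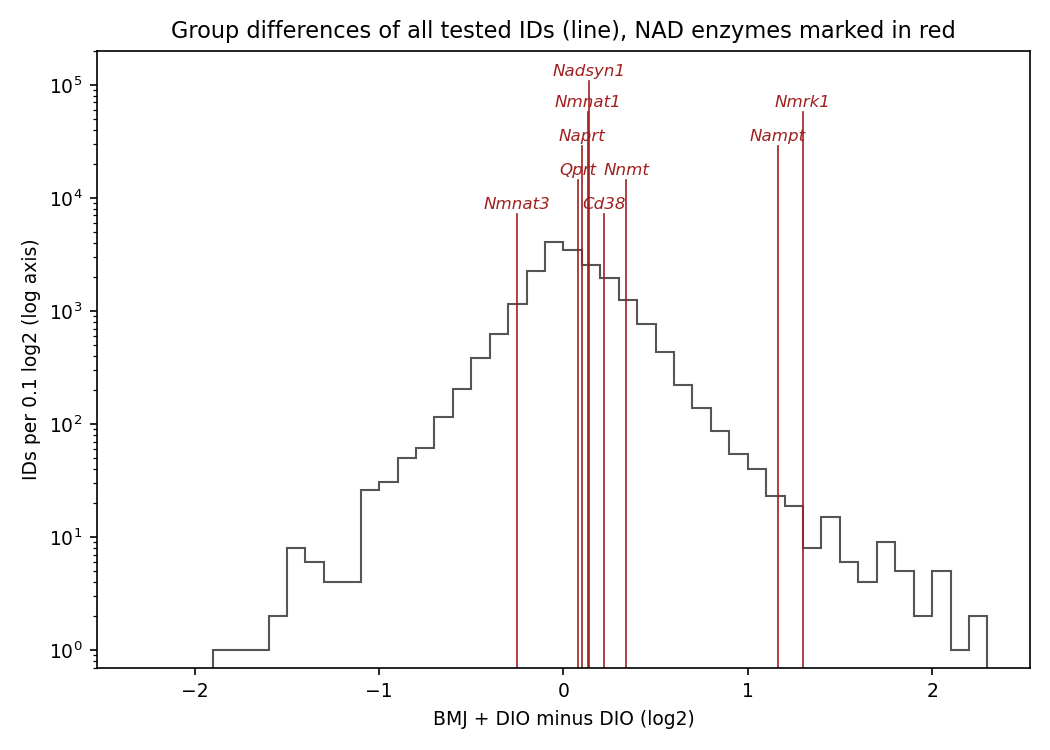
Number of tested IDs per 0.1 step of BMJ + DIO minus DIO difference (line, log vertical axis, horizontal axis in log2 units), with the 9 enzymes marked by red vertical lines whose height has no meaning. Nampt at 1.16 and Nmrk1 at 1.30 lie in the upper tail, while the other 7 lie between -0.25 and 0.34. The list was made with this comparison in view, so these positions are a description.

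The control livers varied more than the treated ones for 8 of the 9 enzymes, with Nnmt as the exception. Of all tested IDs, 72.4% had the larger SD in DIO. Both figures include DIO replicate 3. The 8 enzymes include Nadsyn1, with 1 repeated treated value, and Nmnat1, Nmnat3 and Qprt, which share a value between treated livers. DIO replicate 3 was the lowest of all 7 livers for 8 enzymes, Nnmt among them, by amounts that differed. It lay -1.66 from the 7-array median for Nampt, -1.53 for Nmrk1, -0.84 for Nmnat1 and -0.23 for Nnmt, beside the median of -0.46 for IDs between 5 and 8. DIO replicate 1 was the highest of all livers for Nmnat1, Qprt and Nadsyn1, yet it was below every treated liver for Nampt, Nmrk1 and Nnmt.

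**Figure D4:**
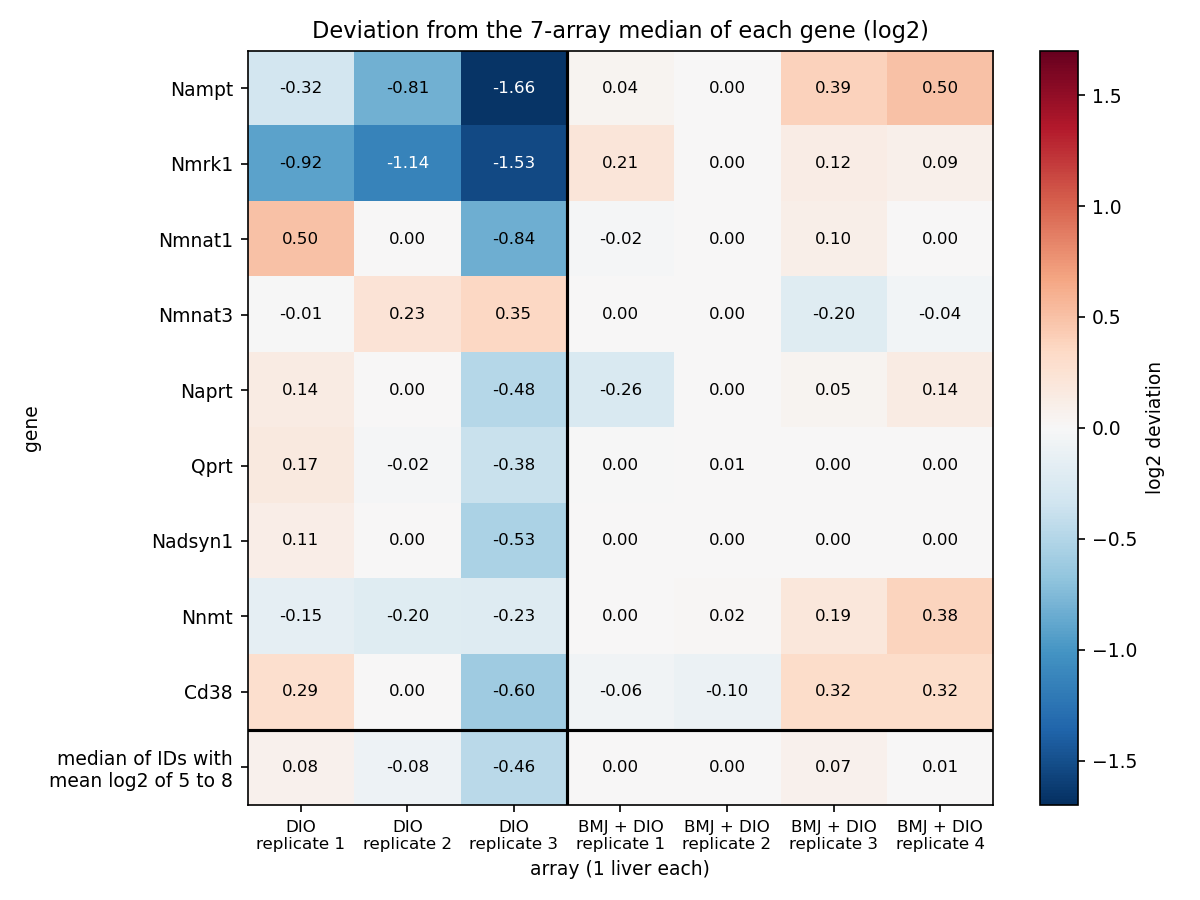
Deviation of each enzyme (rows) from its own 7-array median on each array (columns), in log2 units, with the median of the 5894 tested IDs whose mean lies between 5 and 8 in the last row. Nampt and Nmrk1 are negative in all 3 DIO livers, from -0.32 to -1.66, whereas Nmnat1, Naprt, Nadsyn1 and Cd38 are below their median in DIO replicate 3 alone among the controls.

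Differences between enzymes within an array remove whatever raises or lowers them equally. Against the median of the other 8 enzymes on its own array, Nmrk1 moved from -0.46 ± 0.17 (SD, n = 3) in DIO to 0.63 ± 0.23 (SD, n = 4) in BMJ + DIO, a shift of 1.09 on the log2 scale. Nampt moved from 0.64 ± 0.22 to 1.33 ± 0.094 on the same measure, a shift of 0.69. On this measure the groups did not overlap for 7 of the 9 enzymes. It was not computed over all tested IDs, so nothing is read from that count. The other 5 of these shifted downward, Nmnat3 by -0.87, Naprt by -0.59, Nmnat1 by -0.49, Nadsyn1 by -0.48 and Cd38 by -0.45. All 5 had overlapping groups on the deposited values. The means include DIO replicate 3, which read -1.10 for Nmnat3, beside -2.37 and -1.91 on the other DIO arrays. The measure is relative, and a higher level of some enzymes lowers the rest against a median that includes them. The groups overlapped for Qprt and for Nnmt, which read 1.64 ± 0.43 in DIO and 1.51 ± 0.070 in BMJ + DIO.

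Nampt minus Nmnat1, a pair chosen after the values were seen, joins the entry step of salvage to the step that follows it. It was 0.82, 0.82 and 0.81 on the DIO arrays, the smallest control spread (SD 0.0083) of 8 pairs computed. The next was 0.026 for Naprt minus Nadsyn1, and the SDs reached 0.85 for Nmnat1 minus Nmnat3. Nothing is read from a smallest spread picked among them. On the BMJ + DIO arrays Nampt minus Nmnat1 was 1.69, 1.63, 1.92 and 2.13, all far above. Nampt minus Nnmt and Nmrk1 minus Nmnat1 also had separate groups, and the remaining pairs overlapped. Every pair with separate groups holds Nampt or Nmrk1, whose groups were already separate on the deposited values. Separation was not computed for pairs of other IDs, so nothing is read from it. Nmrk1 minus Nampt, in contrast, overlapped between the groups, with -1.17, -0.90 and -0.44 in DIO and -0.40, -0.57, -0.84 and -0.99 in BMJ + DIO.

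Among the treated livers, replicates 3 and 4 were above replicates 1 and 2 for Nampt, Nnmt, Cd38 and Naprt, but not for Nmrk1, whose highest treated value was in replicate 1. Over the 7 arrays, the enzymes with 7 distinct values had Pearson correlations with Nampt of 0.92 (Nmrk1), 0.85 (Nnmt) and 0.82 (Cd38). With Nmrk1 those of Nnmt and Cd38 were 0.81 and 0.54. No other enzyme met that condition, so this is not a ranking of likeness. These values are descriptions that contain the group difference and the shared low array. Without DIO replicate 3 those of Cd38 were 0.44 with Nampt and -0.012 with Nmrk1. Those of Nnmt were then 0.93 with Nampt and 0.76 with Nmrk1, and that of Nmrk1 with Nampt was 0.88.

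Other NAD genes, such as those of the kynurenine route from tryptophan, the sirtuins and the poly-ADP-ribose polymerases, and the clock genes, were listed by symbol only. No table used here pairs their symbols with Ensembl IDs, so they were not analysed here, and hepatocyte markers could not be checked for the same reason.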

How the data were processed

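Liver RNA from 7 mice, called biological replicates in the sample titles, was labelled with biotin by an Affymetrix kit for arrays, per the labels' protocols. The authors deposited log2 values made with Affymetrix Power Tools and RMA, per the submitters' processing notes, which also name GRCm38 (mm10). Not given in the sources used here were versions, array type, probe grouping and scan dates, and batches were not examined. The number of arrays limits the precision.

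The 9 enzymes and all lists were chosen with earlier results of these data known. IDs in the lowest 40% by mean (13371, mean log2 under 2.74) were left out, and limma 3.58.1 in R 4.3.3 (lmFit, eBayes, group as the sole term, 5 residual and 1.05 prior degrees of freedom) was fitted on the remaining 20055, with Benjamini-Hochberg adjustment over all of them. Intervals are 95% from that fit. The calls of the fitting step, not the intervals, were checked on simulated data. All 9 enzymes are described. Alternatives were other filters, normalizations and variance models, the replicate block, and leaving out each array. Gene positions and upstream sequences are RefSeq's (GRCm38.p6), matched by symbol: positions for 9 enzymes and upstream windows for 7. No Ensembl ID could be matched, so the remaining lists gave no result.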

Additional observations from a re-analysis of the deposited data

Results flagged for a closer look

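Nmnat1 in BMJ + DIO replicate 3, at 5.69 on the log2 scale, stood apart from the other treated livers by Dixon's test for a single distant value. The gap to the nearest liver was 83.2% of the group's range. That range was narrow, from 5.58 to 5.69, and 2 of the other 3 treated livers hold exactly the same value. Groups of 3 were not tested in this way, so DIO replicate 3 was not assessed. Such a flag arises by chance in about 1 group in 20, and 8 enzymes were examined, Nadsyn1 having no spread in the treated group. No explanation was tested.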

How the results depend on the processing

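Over 9 enzymes and 15 alternatives, 131 of 135 differences moved by less than 1 within-group SD. The other 4 were Qprt at -0.12 and Nnmt at 0.14 after quantile normalization, and -0.16 and 0.10 after cyclic loess. The cause was not tested. The other filters and variance models cannot change a difference, only its error, so this count is no measure of stability. The SD also includes DIO replicate 3. Without that array Nmnat1 went from 0.13 to -0.23 and Cd38 from 0.22 to -0.028, and these still count as less than 1 SD. Nampt was lowest, at 0.80, without DIO replicate 3 and highest, at 1.47, without DIO replicate 1, while Nmrk1 lay between 1.11 (cyclic loess) and 1.44 (without DIO replicate 1), though groups that do not overlap cannot turn when 1 array is left out. Enzymes past unadjusted p under 0.05 and 1.5-fold numbered 2 in 14 alternatives and 1 (Nmrk1) with the replicate block, where Nampt was 1.07 with an interval of -0.23 to 2.37. Nothing ties equal numbers to shared animals or days, and same-numbered residuals correlated at -0.36, -0.090 and -0.30. When 1 array was left out, enzymes without overlap numbered 3 to 5, beside 4.46% to 39.6% of all tested IDs, and the median difference over the enzymes ran from -0.056 to 0.36, with DIO replicate 1 behind all 3 upper values. Over all IDs, the same rule took in 343, or 174 with the replicate block, 202 when variances were not moderated, 527 when dim IDs were kept (a larger table) and, when 1 array was left out, between 186 (DIO replicate 3) and 2091 (DIO replicate 1). IDs past the adjusted p of 0.05 numbered 0 in all alternatives but cyclic loess, where limma called 1. That ID was Nmrk1, which had been singled out by this same comparison beforehand, so nothing is read from the call. Signal over background was not examined here.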
